A study of Mus musculus with 6 samples.

Results

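The genes of respiratory complex I were examined in cardiomyocytes of H19 knockout and wild-type mice whose hearts had worked against a narrowed aorta for 6 weeks. The members were all genes whose name on the array begins with Nduf: 42 genes among the 21893 genes tested, each read by the probe with the highest mean signal over the 6 arrays. Their probes lay on 16 chromosomes, with at most 5 genes on one. They comprised 7 core subunits, 29 accessory subunits, 4 assembly factors named Ndufaf and 2 genes, Ndufa4 and Ndufa4l2, whose names place them in the family although their products are not subunits of complex I. The knockout group held 3 samples from adult H19 KO mice, and the wild-type group held 3 samples from their wt littermates. Every animal of both groups had undergone transverse aortic constriction (TAC), surgery in which the arch of the aorta is constricted so that the left ventricle pumps against a raised pressure. Cardiomyocytes were isolated by retrograde perfusion of the heart, and their total RNA was hybridised to 1-colour Agilent arrays. Unoperated hearts were not analysed here, so each difference is one between genotypes under load. Nothing in the labels ties an array to a single mouse, and the p-values therefore reflect only how far these 6 samples spread, in part perhaps for technical reasons. The deleted part of the H19 allele and the cells in which it is deleted are not given in the sources used here.

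Complex I, NADH:ubiquinone oxidoreductase, is the main entry point of electrons into the mitochondrial respiratory chain. Its nuclear-encoded core subunits form the arm in the matrix that carries the flavin, the iron-sulfur clusters and the quinone site, and the core subunits of its proton-pumping membrane arm are encoded in mitochondrial DNA. Accessory subunits surround and stabilise this core, and assembly factors join modules of the growing complex and leave it once it is complete. Heart muscle holds much of this enzyme because contraction depends on oxidative phosphorylation.

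The targeted gene H19, which gives an imprinted non-coding RNA, was read first as a check of the labels. Its scaled log2 signal, which is the log2 of the processed intensity minus the 75th percentile of the array, was -5.96, -6.72 and -6.27 on the knockout arrays, against 1.41, 0.47 and 0.53 on the wild-type arrays. The probe, at chr7:149761492-149761551 (mm9), was well above background on 0 of 3 knockout arrays and on 3 of 3 wild-type arrays. By this probe H19 was at least 64.4-fold lower in knockout samples. The difference was called on the values as read (limma, adjusted p = 0.00226). H19 had 7 probes on the array, and only this one is reported here. It passed the filter through the wild-type arrays alone, so the filter itself favoured a lower reading in knockout samples. Whether this probe lies within the deleted part is not known here. Its low signal thus checks the labels, and does not show which part of the gene is deleted. All 10 cardiomyocyte markers were well above background on all 6 arrays, with 3 of them higher and 7 lower in knockout samples and none called. The share of spots well above background was 48.8% to 58.6% by array, with 0 saturated spots. Slide 1 carried replicate 1 of both genotypes, and slide 2 carried the other 4 samples.

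No complex I gene differed between genotypes beyond the spread between replicates. Among the 42 members, limma called 0 higher and 0 lower at an adjusted p under 0.05, beside 0.00914% of all genes tested called higher and 0.0274% called lower in knockout samples (0.0365% in all). At an unadjusted p under 0.05, 0 members were higher and 0 lower, beside 1.01% of all genes higher and 6.93% lower (7.94% in all). All 42 members were well above background on all 6 arrays. The mean was higher in knockout samples for 13 members and lower for 29, and the median difference of the members was -0.04 (log2, KO minus WT), beside -0.06 over all genes tested. The arrays of the 2 genotypes did not overlap for 1 member, Ndufb8, which was lower in all 3 knockout samples. For 8.67% of all genes the groups did not overlap in that direction, and for 1.86% in the other (10.5% in all), so 1 lower and 0 higher of 42 members were no more than this background. The direction of these counts belonged to the scaling: with each array scaled to the median of all its probes (median-probe scaling), 41 members were higher in knockout samples and 1 was lower, but the median of all genes then moved to 0.37 and the members stood at 0.39.

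The differences were small, and for most members they were bounded closely. The 95% confidence interval of the difference lay within 1.5-fold in either direction for 38 of the 42 genes (90.5%), against 43.9% of all genes tested. The exceptions included Ndufa6, Ndufa4l2 and Ndufs8. Such close bounds were not particular to complex I. They held for 4 of 4 genes of complex II, 9 of 9 of complex III and 11 of 13 of complex IV. They also held for 14 of 16 genes of complex V and 10 of 10 cardiomyocyte markers. The members' probes were bright: apart from Ndufa6, their lowest scaled log2 signal on any array was 2.33, above the array's 75th percentile. The part of brightness in the close bounds was not tested. By class, the median difference was -0.00 for the core subunits, -0.04 for the accessory subunits and -0.05 for the assembly factors. Of the core subunits 3 were higher and 4 lower in knockout samples, of the accessory subunits 7 were higher and 22 lower, and of the assembly factors 1 was higher and 3 lower. These intervals cover the 75th-percentile scaling alone and do not include the uncertainty of the scaling itself.

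**Figure D1:**
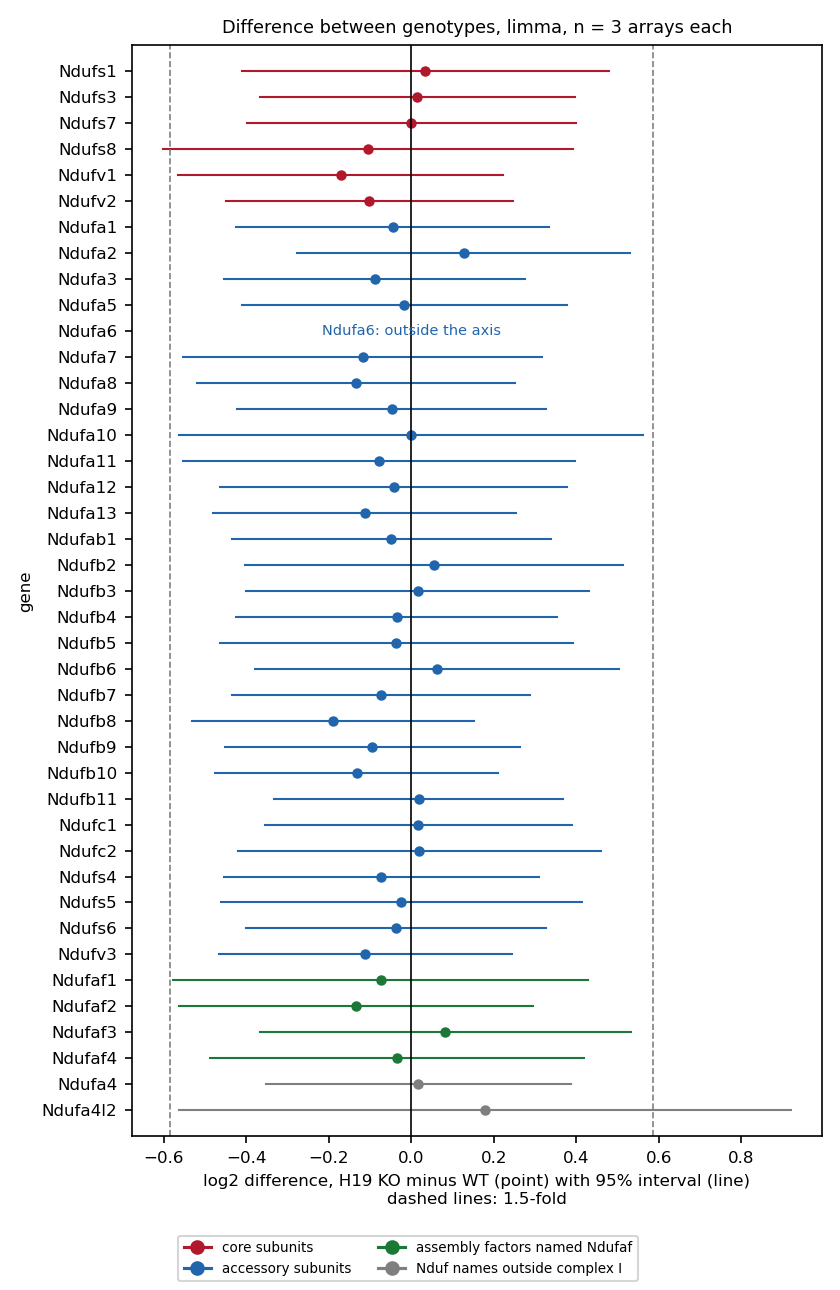
Difference between genotypes for the genes with an Nduf name reported here, as H19 KO minus WT in log2 units (points) with the 95% confidence interval from limma (lines), 3 arrays per genotype. Every interval shown crosses 0, and the dashed lines mark a 1.5-fold difference; Ndufa6, with an interval between -7.60 and 2.06, lies outside the axis.

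With the 75th-percentile scaling, the genes shared a movement from array to array that did not follow genotype. The median deviation of the members from their own means was 0.19, -0.23 and -0.01 (log2) on knockout arrays 1, 2 and 3, against -0.04, 0.00 and 0.10 on wild-type arrays 1, 2 and 3. Knockout array 1 was thus the highest and knockout array 2 the lowest, with the wild-type arrays between them. The order belonged to this scaling: with each array scaled to the median of all its probes, the deviations were 0.40, -0.05 and 0.24 on the knockout arrays, against -0.66, -0.21 and 0.29 on the wild-type arrays, and wild-type array 1 was the lowest. The counts that follow are those of the 75th-percentile scaling. Knockout array 1 gave the highest of the 6 values for 30 of 42 members, against 25.0% of all genes tested. Knockout array 2 gave the lowest for 37 of 42 members, against 31.0% of all genes. The SD was accordingly larger among knockout than among wild-type samples for 40 of 42 members, with a median SD of 0.22 in knockout and 0.10 in wild-type samples, while over all genes it was larger among knockout samples in 52.6%.

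The members followed each other closely over the arrays. The correlation of a member with the median of the other members had a median of 0.90 over the 6 arrays, and 21 of 42 members exceeded 0.9, as did 6.61% of all genes against the same median. This was not particular to complex I. Against the members' median, 3 of 4 genes of complex II and 6 of 9 of complex III exceeded 0.9. So did 4 of 13 genes of complex IV, 10 of 16 of complex V and 3 of 10 cardiomyocyte markers. These are descriptions over 6 points that share their libraries and their scaling. The normalization set their size: after quantile normalization the median correlation was 0.45 and 2 members exceeded 0.9, and the median deviation shrank to 0.05, -0.05 and 0.01 on the knockout arrays, against 0.00, 0.01 and 0.03 on the wild-type arrays. Median-probe scaling moved the correlations the other way, to a median of 0.99 with 40 members above 0.9. Ndufa5, a small subunit of the matrix arm, followed the others most closely with a correlation of 0.99. Ndufab1, the acyl carrier protein of the mitochondrion, reached 0.99 too. Ndufa4l2 stood at -0.82, at -0.81 after quantile normalization and at 0.17 with median-probe scaling, so its sign depended on the scaling. Ndufa6, with 1 array far from the rest, stood at 0.10, -0.04 and -0.16 under the same 3 settings.

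**Figure D2:**
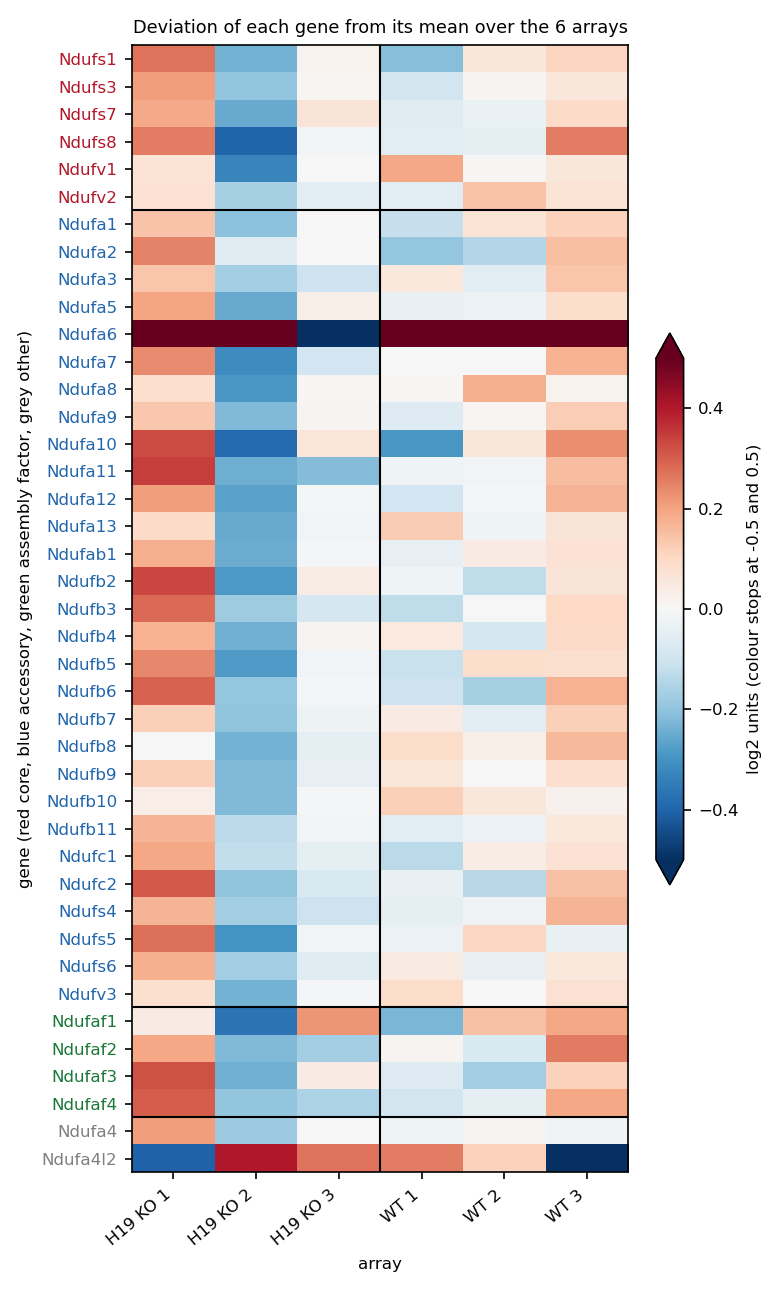
Deviation of the genes with an Nduf name reported here from their own means over the 6 arrays (colour, log2 units, 75th-percentile scaling), with the 3 H19 KO arrays on the left and the 3 WT arrays on the right. Nearly all rows are red on knockout array 1 and blue on knockout array 2, Ndufa4l2 runs the other way, and Ndufa6 is far below its mean on knockout array 3 alone.

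Markers of several other cell types also varied over the arrays, and no marker was called. The 10 fibroblast markers had median deviations of -0.45, 1.27 and 0.06 on the knockout arrays, against 0.31, -0.38 and -0.84 on the wild-type arrays, so knockout array 2, with the lowest complex I signals under this scaling, had the highest fibroblast signals. With median-probe scaling, knockout array 2 was still the highest in fibroblast markers at 1.46, but the lowest complex I signals were on wild-type array 1, where the fibroblast markers stood at -0.31. All 10 had a higher mean in knockout samples, with a median difference of 0.60, but this value rested largely on knockout array 2: without it, 7 were higher and 3 lower, with a median of 0.07. Without wild-type replicate 3 the median was 0.28, with 9 higher and 1 lower. Their summed level (log2 of the summed scaled signal) ranged between 7.39 and 8.64 on the knockout arrays and between 6.83 and 7.94 on the wild-type arrays, and no marker was at background on any array. After quantile normalization the fibroblast deviations were -0.51, 1.33 and 0.07 on the knockout arrays, against 0.36, -0.36 and -0.91 on the wild-type arrays. The cardiomyocyte markers deviated by 0.17, -0.21 and 0.01 on the knockout arrays and by 0.01, 0.06 and 0.05 on the wild-type arrays, in the same order on the knockout arrays as the complex I genes. The median deviations of the 4 atrial cardiomyocyte markers followed genotype instead, at -1.01, -1.90 and -1.73 on the knockout arrays. On the wild-type arrays they were 1.97, 2.47 and 0.29. Of these 4 markers, 3 were lower in knockout samples without overlap, beside 8.67% of all genes. The other 1 did not follow genotype, with a difference of 0.02. The median difference was -3.15. Their summed level was between 7.97 and 8.21 on the knockout arrays and between 8.19 and 8.35 on the wild-type arrays. This sum adds linear signals and weighs the brightest markers most, so it can stay level while dimmer markers fall. With median-probe scaling, 3 of the 4 were called, beside 118 of all 21893 genes, and so were 1 fibroblast and 1 lymphocyte marker. Without wild-type replicate 3, 2 atrial markers were called, where leaving out any 1 array gave 1 to 10 genes called in all. All 10 macrophage markers had a lower mean in knockout samples (median difference -0.54), with deviations of -0.62, 0.50 and -0.58 on the knockout arrays, against 0.08, 0.18 and 0.55 on the wild-type arrays. Without knockout replicate 1 the median was -0.32, without knockout replicate 2 it was -0.89, and with median-probe scaling it was -0.12, with 4 higher and 6 lower. Endothelial markers deviated by -0.39, 0.36 and 0.15 on the knockout arrays, against 0.27, 0.10 and -0.37 on the wild-type arrays. The 2 erythroid markers tested were highest on knockout array 2 at 3.04 and wild-type array 1 at 2.41, and lay between -2.25 and -0.53 on the other arrays. The part of these markers in the array pattern was not tested. In bulk RNA, fewer cells of a type and less RNA per cell cannot be told apart.

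**Figure D3:**
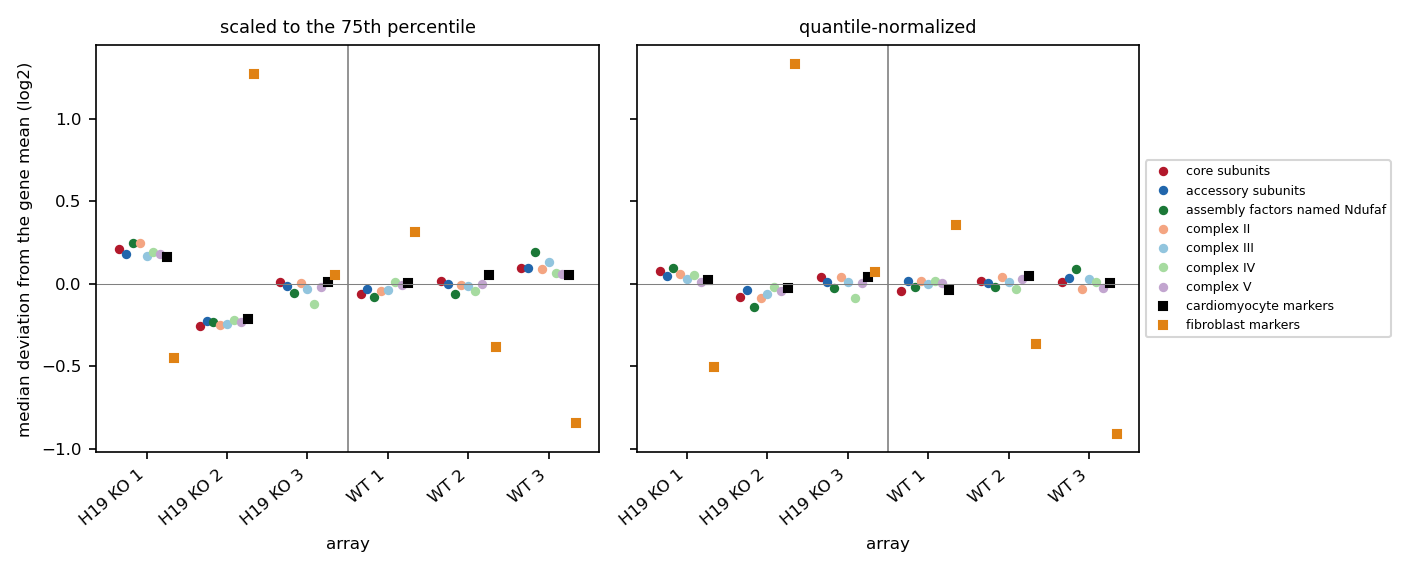
Median deviation from the gene mean on each array (log2 units) for the classes of complex I genes, complexes II to V and the cardiomyocyte and fibroblast markers (points; H19 KO arrays left of the line, WT arrays right), with 2 normalizations. The respiratory classes lie together on each array, high on knockout array 1 and low on knockout array 2 under the 75th-percentile scaling, and this spread narrows after quantile normalization while that of the fibroblast markers does not.

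With the 75th-percentile scaling, the difference between genotypes turned its sign with the slide. On slide 1, with 1 knockout against 1 wild-type array, 36 members were higher and 6 lower in the knockout sample, with a median difference of 0.24. On slide 2, with 2 against 2 arrays, 1 member was higher and 41 were lower in knockout samples, with a median of -0.18. Opposite signs of this kind, higher on slide 1 and lower on slide 2, were seen for 36 of 42 members (85.7%) and for 38.2% of all genes tested, whose medians were -0.02 on slide 1 and -0.13 on slide 2. The same turn was seen in 3 of 4 genes of complex II and 9 of 9 of complex III. It was seen in 7 of 13 genes of complex IV, 15 of 16 of complex V and 7 of 10 cardiomyocyte markers. In a check added after the data were seen, the turn was smaller with quantile normalization, where the members' medians were 0.07 on slide 1 and -0.05 on slide 2. Of the 42 members, 19 then had these opposite signs (45.2%), against 30.8% of all genes. With median-probe scaling the medians were 1.07 on slide 1 and 0.05 on slide 2, beside 0.81 and 0.09 over all genes, and the members' median did not turn. The opposite signs were then seen for 11 of 42 members (26.2%), against 20.6% of all genes. The choice of arrays had a like effect: without knockout replicate 2, 30 members were higher and 12 lower in knockout samples (median 0.07), and without knockout replicate 1, 2 were higher and 40 lower (median -0.15). Without wild-type replicate 1, 7 were higher, and without wild-type replicate 3, 21 were higher. Whether slide or sample underlies this cannot be told apart, since slide 1 held 1 array of each genotype.

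**Figure D4:**
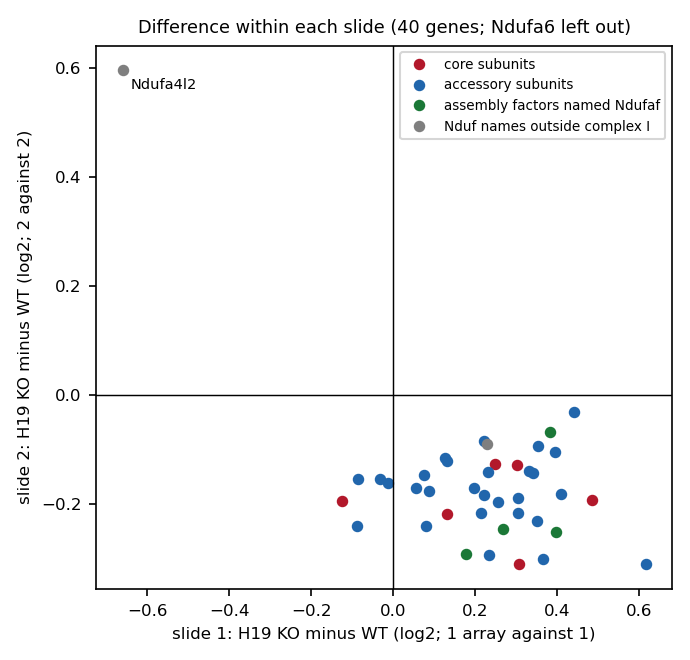
Difference between genotypes (H19 KO minus WT, log2 units, 75th-percentile scaling) within slide 1 (horizontal axis, 1 array against 1) and within slide 2 (vertical axis, 2 arrays against 2) for 40 genes with an Nduf name, without Ndufa6. Most points lie in the lower right, higher in the knockout sample on slide 1 and lower in knockout samples on slide 2, and Ndufa4l2 alone lies in the upper left.

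The members' promoters were searched for motifs of factors known to control respiratory genes, as sequence features that the rule for the members did not use. Whether such motifs have a part in the array pattern was not tested. RefSeq (build GRCm38.p6) gave windows of 250 bases before to 50 after the start site for 37 of the 42 members, 39 windows in all. A pair of GCGC letters separated by any 2 bases, the core bound by the nuclear respiratory factor NRF1, was found on either strand in 11 of 39 windows (28.2%), against 6.23% of the 32851 windows of all genes. GCCATNTT, the core of the YY1 motif, was found in 13 of 39 (33.3%), against 6.05% of all windows. Such shares were not seen in complex I genes alone: the NRF1 core was in 2 of 3 windows of complex II, 1 of 5 of complex III, 1 of 10 of complex IV and 7 of 18 of complex V (38.9%), and the YY1 core was in 0, 0, 1 and 5 of them (27.8% for complex V). In 7 genes (Ndufa3, Ndufa9, Ndufb8, Ndufc1, Ndufs4, Ndufs6 and Ndufs7) the YY1 core lay just after the start site, its first base between 23 and 39, in each case as aagatggc, and 17.9% of the members' windows held such a match after the start site, against 2.05% of all windows. The ETS motif CCGGAAG was in 12.8% of the members' windows and 8.86% of all windows, and CCAAT was in 33.3% and 37.4%. TCAAGGTCA, the motif of the estrogen-related receptors, was in 0 of 39 windows and in 0.423% of all windows. The members' windows were also richer in G and C, with a median of 59.3%, against 52.7% over all windows, and the part of base composition in these shares was not tested. No match of one motif overlapped a match of another in the members' windows. A match is a description of the letters, not a bound site. The windows of 5 genes are shown because they span the classes and hold both cores. In capitals are the NRF1 and YY1 matches, and the last 50 bases of each sequence follow the start site. Ndufs7 is a core subunit (chr10:80249199-80249498 on the plus strand), and Ndufs6 (chr13:73328433-73328732 on the minus strand), Ndufb8 (chr19:44555393-44555692 on the minus strand) and Ndufa6 (chr15:82354242-82354541 on the minus strand) are accessory subunits. Ndufaf4 (chr4:24897833-24898132 on the plus strand) is an assembly factor.
Ndufs7 promoter: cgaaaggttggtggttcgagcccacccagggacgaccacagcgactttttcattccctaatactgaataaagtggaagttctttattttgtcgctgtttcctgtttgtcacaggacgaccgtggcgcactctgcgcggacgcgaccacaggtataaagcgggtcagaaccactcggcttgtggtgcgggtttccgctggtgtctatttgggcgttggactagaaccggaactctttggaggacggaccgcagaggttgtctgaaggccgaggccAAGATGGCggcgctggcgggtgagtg
Ndufs6 promoter: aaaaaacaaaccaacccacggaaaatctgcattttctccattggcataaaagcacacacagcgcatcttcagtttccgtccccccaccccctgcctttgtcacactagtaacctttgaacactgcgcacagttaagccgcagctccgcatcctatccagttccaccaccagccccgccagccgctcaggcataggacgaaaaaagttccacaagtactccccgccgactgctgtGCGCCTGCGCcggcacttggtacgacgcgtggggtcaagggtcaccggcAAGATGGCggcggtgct
Ndufb8 promoter: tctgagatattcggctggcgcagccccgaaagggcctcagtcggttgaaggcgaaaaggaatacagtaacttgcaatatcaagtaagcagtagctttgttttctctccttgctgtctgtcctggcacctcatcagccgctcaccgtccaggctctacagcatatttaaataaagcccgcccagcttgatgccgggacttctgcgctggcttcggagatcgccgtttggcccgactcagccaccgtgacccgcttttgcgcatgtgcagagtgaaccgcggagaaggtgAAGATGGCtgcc
Ndufa6 promoter: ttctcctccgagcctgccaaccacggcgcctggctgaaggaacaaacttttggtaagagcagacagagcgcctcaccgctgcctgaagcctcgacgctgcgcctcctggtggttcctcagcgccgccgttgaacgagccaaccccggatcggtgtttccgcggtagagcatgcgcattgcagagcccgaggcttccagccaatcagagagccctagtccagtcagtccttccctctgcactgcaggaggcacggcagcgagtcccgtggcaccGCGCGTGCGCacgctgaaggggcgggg
Ndufaf4 promoter: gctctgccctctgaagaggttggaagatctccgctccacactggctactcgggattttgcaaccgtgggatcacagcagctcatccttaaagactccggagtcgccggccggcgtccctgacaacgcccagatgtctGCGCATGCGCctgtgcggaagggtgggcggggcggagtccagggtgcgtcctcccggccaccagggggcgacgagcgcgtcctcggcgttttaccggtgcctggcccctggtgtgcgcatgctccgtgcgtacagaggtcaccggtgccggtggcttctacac
Ndufs6 holds both cores, Ndufs7 and Ndufb8 the YY1 core alone, and Ndufa6 and Ndufaf4 the NRF1 core alone.

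The module that oxidises NADH holds 3 of the 7 core subunits. Ndufv1, which binds NADH and carries the flavin, had scaled log2 signals of 7.82, 7.43 and 7.76 in knockout samples, against 7.95, 7.76 and 7.81 in wild-type samples. Its difference of -0.17 ± 0.17 (SE, n = 3 each) was the lowest of the core and was not called (limma, adjusted p = 0.928). Its groups overlapped, with knockout array 2 the lowest. Ndufv2, which holds an iron-sulfur cluster beside the flavin, had 7.03, 6.79 and 6.90 in knockout samples, against 6.90, 7.10 and 7.02 in wild-type samples, a difference of -0.10. Ndufs1, the large subunit that passes electrons on along several iron-sulfur clusters, had 7.60, 7.09 and 7.35 in knockout samples, against 7.11, 7.39 and 7.43 in wild-type samples, a difference of 0.03. For Ndufs1 the knockout values reached beyond the wild-type values at both ends.

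Other core subunits build the module that reduces ubiquinone. Ndufs7, which holds the last iron-sulfur cluster before ubiquinone, had 7.95, 7.51 and 7.83 in knockout samples, against 7.70, 7.73 and 7.86 in wild-type samples, with means of 7.76 in both groups. Ndufs8, another carrier of iron-sulfur clusters, had 5.49, 4.84 and 5.22 in knockout samples, against 5.18, 5.19 and 5.49 in wild-type samples, a difference of -0.10. Ndufs3, a structural subunit between the modules, had 7.60, 7.19 and 7.40 in knockout samples, against 7.30, 7.41 and 7.45 in wild-type samples, a difference of 0.01. In each of these genes the groups overlapped and knockout array 1 lay above knockout arrays 2 and 3. The adjusted p was at least 0.928 for each core subunit named.

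Ndufb8, an accessory subunit of the membrane arm whose protein is often used as a marker of assembled complex I, was the one member without overlap. It had 7.85, 7.61 and 7.80 in knockout samples, against 7.94, 7.88 and 8.01 in wild-type samples. Its mean was 7.75 ± 0.13 in knockout and 7.94 ± 0.07 in wild-type samples (SD, n = 3 each), 1.14-fold lower in knockout samples, and the difference of -0.19 was not called (limma, unadjusted p = 0.230, adjusted p = 0.834). It was -0.09 within slide 1 and -0.24 within slide 2, and between -0.24 and -0.12 when any 1 array was left out. With the arrays scaled to the median of all probes it was 0.24, below the 0.37 of all genes.

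The other accessory subunits with the smallest p-values differed by less. Ndufb10, a membrane-arm subunit on the side of the intermembrane space, had 7.72, 7.47 and 7.68 in knockout samples, against 7.81, 7.75 and 7.71 in wild-type samples (adjusted p = 0.972 by limma). Ndufa8, also on that side, had 6.08, 5.71 and 6.00 in knockout samples, against 6.00, 6.18 and 6.01 in wild-type samples. Ndufa2, a matrix-arm subunit, had 7.34, 7.03 and 7.09 in knockout samples, against 6.89, 6.94 and 7.24 in wild-type samples, and at 0.13 it had the highest difference of the accessory subunits. For these 3 genes the groups overlapped. Ndufv3, a small subunit of the NADH-oxidising module, had 7.91, 7.59 and 7.82 in knockout samples, against 7.92, 7.83 and 7.91 in wild-type samples. Ndufa13, also known as GRIM-19, had 8.08, 7.73 and 7.97 in knockout samples, against 8.11, 7.96 and 8.05 in wild-type samples. Ndufa7, of the matrix arm, had 6.88, 6.33 and 6.55 in knockout samples, against 6.65, 6.65 and 6.82 in wild-type samples. Knockout array 2 gave the lowest value in each of them. Ndufb9, a membrane-arm subunit with the LYR motif that binds the acyl carrier protein, had 7.99, 7.66 and 7.84 in knockout samples, against 7.94, 7.87 and 7.96 in wild-type samples. Ndufa3, of the membrane arm, had 7.83, 7.52 and 7.59 in knockout samples, against 7.74, 7.63 and 7.83 in wild-type samples. The differences of Ndufb10, Ndufa8, Ndufv3, Ndufa13, Ndufa7, Ndufb9 and Ndufa3 lay between -0.13 and -0.09.

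The widest spread among accessory subunits other than Ndufa6 was that of Ndufa10, Ndufa11 and Ndufb2. Ndufa10, a subunit with the fold of a nucleoside kinase, had 6.09, 5.37 and 5.82 in knockout samples, against 5.47, 5.82 and 6.00 in wild-type samples, with means of 5.76 in both groups. Ndufa11, a membrane protein near the junction of the arms, had 5.69, 5.10 and 5.13 in knockout samples, against 5.33, 5.33 and 5.50 in wild-type samples, a difference of -0.08. Ndufb2, of the membrane arm, had 7.12, 6.49 and 6.82 in knockout samples, against 6.76, 6.66 and 6.85 in wild-type samples, a difference of 0.06. In all 3 the highest value came from knockout array 1. Over the accessory subunits by name, 1 of 13 Ndufa genes, 4 of 10 Ndufb genes, 2 of 2 Ndufc genes and 0 of 4 Ndufs and Ndufv genes had a higher mean in knockout samples. Further probes were present for 10 members and gave the same sign as the chosen probe for 6 of them. The signs differed between probes of Ndufb11, Ndufb2, Ndufb5 and Ndufb6, all membrane-arm subunits, where the chosen probes stood at 0.02, 0.06, -0.04 and 0.06. Of their further probes, one of Ndufb11 stood at -0.10, and those of Ndufb2, Ndufb5 and Ndufb6 stood at -0.11, 0.05 and -0.07. Within a gene the differences from its probes lay at most 0.197 apart.

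Ndufa6, a matrix-arm subunit of the LYR family that anchors the acyl carrier protein, had the lowest difference of the members, and 1 array made it. Its scaled log2 signals were 5.98, 5.36 and -2.30 in knockout samples, against 5.57, 5.84 and 5.95 in wild-type samples. Knockout array 3 stood 7.66 below the nearest other array (202-fold), whereas the other 2 knockout arrays overlapped the wild-type arrays. In processed intensity the probe read 60072, 47257 and 186 in knockout samples, against 36655, 56047 and 57591 in wild-type samples. The difference was -2.77 ± 2.04 (SE, n = 3 each; limma, unadjusted p = 0.216, adjusted p = 0.818), and -0.12 without knockout replicate 3. A fit with array weights, which gives each array 1 weight from its fit over all genes, gave -5.57 with an adjusted p of 0.151, and no alternative gave a smaller one. The spot was printed once per array, was marked as an outlier on none and was well above background also on knockout array 3. No other tested gene had so large a gap of 1 array below the rest. More than 4 log2 units below the other 5 arrays lay 4 genes on knockout array 3 and 0 on each other array. The probe, shown because the value rests on it alone, covers 60 bases of the minus strand of chr15:82181444-82181503 (mm9).
Ndufa6 probe: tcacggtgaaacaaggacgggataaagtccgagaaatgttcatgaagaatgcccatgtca
No other Ndufa6 probe was on the array, so the low value on knockout array 3 has no second reading, and its cause was not tested.

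**Figure D5:**
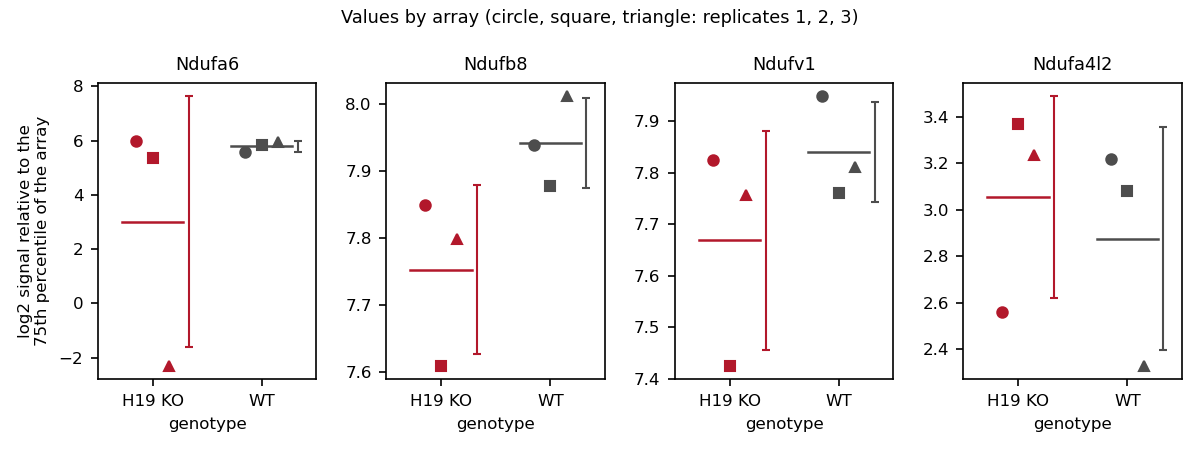
Scaled log2 signal of 4 genes in the 3 H19 KO samples (left of each panel) and the 3 WT samples (right), with the mean (line) and SD (bar); circles, squares and triangles are replicates 1, 2 and 3, and each panel has its own axis. Ndufa6 is set apart by knockout array 3 at -2.30, the groups of Ndufb8 do not overlap, and those of Ndufv1 and Ndufa4l2 do.

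The remaining accessory subunits gave differences between -0.07 and 0.06, none called. They included Ndufs4, of the matrix arm, whose loss in mice causes a Leigh-like disease, at -0.07, and Ndufs6, a zinc-binding subunit, at -0.04. Ndufa9, which binds NADPH, stood at -0.05, Ndufa12 at -0.04, and Ndufab1 at -0.05. The X-linked subunits Ndufa1 and Ndufb11 stood at -0.04 and 0.02.

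The assembly factors also gave small differences, and none was called. Ndufaf1, which helps to build the membrane arm, had 3.96, 3.55 and 4.14 in knockout samples, against 3.69, 4.07 and 4.11 in wild-type samples, a difference of -0.07. Ndufaf2, a paralogue of Ndufa12 that acts late in assembly, had 4.95, 4.53 and 4.58 in knockout samples, against 4.77, 4.68 and 5.02 in wild-type samples, a difference of -0.13. Both genes' groups overlapped. Ndufaf3, which with Ndufaf4 binds the early quinone module, had 3.37, 2.81 and 3.09 in knockout samples, against 2.99, 2.88 and 3.16 in wild-type samples, a difference of 0.08. Ndufaf4 had 5.04, 4.53 and 4.57 in knockout samples, against 4.64, 4.68 and 4.93 in wild-type samples, a difference of -0.03. The adjusted p of each of the 4 was 0.9998 in limma. Of the assembly genes with other names, 15 of 17 were tested, 4 were higher and 11 lower in knockout samples, the median was -0.05 and none was called. Iba57, a protein of iron-sulfur cluster assembly, had the smallest p-value of them, with 1.48, 0.97 and 0.55 in knockout samples, against 1.59, 1.39 and 1.96 in wild-type samples. Its difference was -0.65 (limma, unadjusted p = 0.0515, adjusted p = 0.626), and its groups overlapped at knockout array 1. Oxa1l, which inserts proteins into the inner membrane, stood at -0.21.

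The 2 family members outside complex I did not follow one another. Ndufa4, now counted with cytochrome c oxidase, had 7.71, 7.32 and 7.51 in knockout samples, against 7.48, 7.52 and 7.49 in wild-type samples, a difference of 0.02. Ndufa4l2, its paralogue, known as a target of hypoxia-inducible factor, had 2.56, 3.37 and 3.23 in knockout samples, against 3.22, 3.08 and 2.33 in wild-type samples. Its difference of 0.18 ± 0.31 (SE, n = 3 each) was the highest of all members and was not called (limma, adjusted p = 0.9998), and it was -0.66 on slide 1 and 0.60 on slide 2. With the 75th-percentile scaling it was lowest on wild-type array 3 and knockout array 1, the arrays on which the other members were highest, and highest on knockout array 2, where they were lowest.

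The arrays carried 6 further genes that RefSeq now names Nduf but the array names otherwise. They were Ndufb1, Ndufa11b and the assembly factors Ndufaf5, Ndufaf6, Ndufaf7 and Ndufaf8, of which 0 were higher and 6 lower in knockout samples, with a median of -0.07 and none called. Ndufb1, a small subunit of the membrane arm, stood lowest at -0.18. For Ndufaf5, an enzyme that modifies NDUFS7 in human cells, the brighter probe stood at -0.03. A second, dim probe at chr2:140030903-140030962 (mm9) was well above background on 3 of 3 knockout arrays and on 0 of 3 wild-type arrays. It read at least 1.30-fold higher in knockout samples (limma, adjusted p = 0.593 over all probes). This probe passed the filter through the knockout arrays alone, so the filter itself favoured a higher reading there.

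The lists for the rest of the respiratory chain had median differences between -0.08 and 0.01, and no gene in them was called. Of the mitochondrially encoded complex I subunits, which form its proton-pumping core, 5 of 7 had a tested probe, 1 was higher and 4 were lower in knockout samples, and the median was -0.05. ND5 had 7.81, 7.55 and 7.83 in knockout samples, against 7.89, 7.97 and 7.84 in wild-type samples, without overlap and with a difference of -0.16, and ND6, encoded on the other strand, stood at 0.18. Neither was called. Complex II had 3 of 4 genes higher and a median of 0.00, with Sdhb at -0.12 and Sdhc at 0.02. Complex III had 2 of 9 genes higher and a median of -0.08, with Cyc1 at -0.14 and Uqcrq at -0.09. Complex IV had 4 of 13 genes higher and a median of -0.07, with Cox6a2, the heart and muscle form of its subunit, at -0.22 without overlap and Cox5a at -0.17. Complex V, the ATP synthase, had 3 of 16 genes higher and a median of -0.05, with Atp5g3 at -0.27 without overlap and Atp5g1 at -0.09, both genes of the membrane ring. Among 11 regulators of respiratory genes 6 were higher and the median was 0.01, with Nrf1, which binds the motif searched above, at 0.18 and Gabpb1, a subunit of an ETS factor, at 0.13, higher in all knockout samples without overlap. Lower without overlap were 1 of 5 mitochondrially encoded genes, 1 of 13 of complex IV, 1 of 16 of complex V and 0 of complexes II and III. Of the regulators, 1 of 11 was higher without overlap. Over all genes, 8.67% were lower and 1.86% higher without overlap. No gene in these lists had an unadjusted p under 0.05 in limma.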

How the data were processed

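Total RNA of 6 cardiomyocyte samples (3 H19 KO, 3 WT) was measured on 1-colour Agilent arrays of the mm9 design. Per the file headers, the scanner files hold processed intensity per spot from Agilent Feature Extraction 10.7.3.1. A further table deposited by the authors gives linear intensity with a median of 69.7 in each sample, and no source used here says how it was normalised. Control and outlier spots were dropped, and repeated spots were averaged per probe. The log2 of the processed intensity in the scanner files was taken minus the array's 75th percentile. That percentile lay between 774 and 1150 in processed intensity. A probe was kept when 3 or more of the 6 arrays read it well above background (29997 of 55649), with 1 probe per gene, the one with the highest mean. Genotypes were compared with limma 3.58.1 (R 4.3.3) over all 21893 genes with Benjamini-Hochberg adjustment at 0.05, and the procedure was tested on simulated data. The number of arrays limits the precision.

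RefSeq gave current symbols through the accession for 26425 probes, through the symbol for 3988 and through an older synonym for 826, while 24442 stayed as named on the array. The members and the gene lists were chosen with earlier results of these data known. The genes named were H19, all core subunits and Ndufaf factors, Ndufa4 and Ndufa4l2, the 10 accessory subunits with the smallest p and the 4 with the largest SD, members whose probes differ in sign, and the 2 genes with the smallest p of each other list. Other genes named were chosen after their values were seen, and some results the rule covers are not reported here. Alternatives covered background correction, scaling, the deposited values, the filter, the probe rule, blocks for replicate number and slide, variance models and leaving out each array.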

Additional observations from a re-analysis of the deposited data

How the results depend on the processing

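No complex I gene was called under any of the alternatives, and H19 was called in each that gave it a test. The number of genes called among all tested was 8, and it was 3 with quantile normalization, 3 with the authors' deposited values, 118 when arrays were scaled to their median probe, 1 without a filter on dim probes, 1 with slide as a block and 1 with the replicate block. Leaving out 1 array at a time gave 1 to 10 genes called, with 2 to 30 complex I genes higher and 12 to 40 lower in knockout samples. Deviations of same-numbered samples correlated at -0.22, -0.05 and 0.04, and those of differently numbered samples between -0.27 and 0.33. With 3 arrays per genotype, these values cannot tell whether the replicate number pairs samples. Scaling to the median of all probes gave 41 complex I genes higher and 1 lower. Median differences were then 0.39 for all members, 0.42 for core, 0.38 for accessory and 0.37 for Ndufaf genes, 0.38 for assembly genes with other names, 0.38 for mitochondrially encoded subunits, 0.43, 0.35, 0.36 and 0.37 for complexes II to V and 0.43 for regulators, with all genes at 0.37. On slide 1 alone 36 members were higher and 6 lower, with medians of 0.24 for all members, 0.30 for core, 0.23 for accessory and 0.33 for Ndufaf genes, 0.29 for assembly genes with other names, 0.35, 0.20, 0.25 and 0.21 for complexes II to V and 0.32 for regulators. On slide 2 alone 1 member was higher, and the core median was -0.19. The cause of these shifts was not tested. Precision was limited by 3 arrays a genotype.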
